A study of Mus musculus with 10 samples.

Results

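The genes described are the mast cell tryptase family and its granule partners, namely Tpsb2 (mouse mast cell protease 6, mMCP-6), Tpsab1 (mMCP-7), Tpsg1 (tryptase gamma, also called Prss31 or Tmt), Prss34 (mMCP-11) and Cpa3, the mast cell carboxypeptidase. They were chosen by gene symbol, as 5 of the 22815 symbols in the count table, and all 5 were among the 10533 genes that passed the filter on low counts. RNA was sequenced in bulk from mast cells that flow cytometry had picked out of the lower airway; the donors were C57BL/6 mice, wild type and 5 to 7 weeks old. Mice were anesthetized and given 20 µL of saline (PBS) intranasally, or the same volume with 3 µg of house dust mite (HDM) extract, an allergen preparation, 2 times a week for 3 weeks. The cells were sorted as B7hi and B7low, which the series title pairs with inducible and constitutive mast cells, and where B7 stands for integrin β7 in the published use of these names. The groups are B7hi HDM (n = 3), B7low HDM (n = 3), B7hi PBS (n = 2) and B7low PBS (n = 2). The labels do not say whether libraries came from separate animals or from pools, so a p-value here weighs a difference against library-to-library spread alone, some of which may be technical.

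Tryptases are trypsin-like serine proteases that mast cells store in secretory granules, bound to heparin carried by the proteoglycan serglycin, and that work as tetramers once released. Carboxypeptidase A3 is a zinc exopeptidase stored in the same granules, where it trims peptides from their C-terminal end, often behind a cut made by a chymase. In mice, connective tissue mast cells are known for mMCP-6 and Cpa3 with chymases such as mMCP-4, mucosal mast cells for mMCP-1 and mMCP-2, and Prss34 is also known as a protease of basophils.

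The 4 serine protease genes lie within 76.0 kb of mouse chromosome 17 (GENCODE M21 on GRCm38, the build also called mm10). Prss34 is at chr17:25298394-25300165 on the plus strand and Tpsab1 at chr17:25343245-25345562 on the minus strand. Tpsb2 follows at chr17:25366305-25369098 and Tpsg1 at chr17:25369273-25374442, both on the plus strand, with 174 bases between the end of Tpsb2 and the start of Tpsg1. The 3′ end of Tpsg1 overlaps that of Cacna1h, a calcium channel gene on the other strand, by 158 bases. Cpa3 is alone on chromosome 3, at chr3:20215620-20242181 on the minus strand, with 11 exons. Tpsab1 is a protein-coding gene in GENCODE and a transcribed pseudogene in RefSeq, and the C57BL/6 strain is known to lack mMCP-7 protein through a splice-site mutation.

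Tpsb2 and Tpsab1 are the closest relatives in the family, with 80.9% identity over 816 aligned coding bases, against 72.3% to 76.9% for the other pairs among the 4 serine proteases. Because reads were 25 bases long, how far their transcripts differ decides whether a read can be told apart. The coding windows of 60 bases below, both in exon 3, are where they differ most, at 21 positions shown in capitals; the Tpsb2 window is chr17:25367182-25367241 (plus strand) and the Tpsab1 window chr17:25344721-25344780 (minus strand), read 5′ to 3′.
Tpsb2: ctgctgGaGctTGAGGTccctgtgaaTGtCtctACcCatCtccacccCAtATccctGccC
Tpsab1: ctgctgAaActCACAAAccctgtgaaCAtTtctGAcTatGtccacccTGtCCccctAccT
The longest run that both share is 39 coding bases across the junction of exons 2 and 3.
Shared run: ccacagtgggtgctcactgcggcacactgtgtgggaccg
Of the 1094 sequences of 25 bases in the principal Tpsb2 transcript, 15 (1.37%) also occur in Tpsab1, and they make up 1.33% of the 1132 in Tpsab1. Allowing 2 mismatches, 118 Tpsb2 sequences (10.8%) match Tpsab1. Most, but not all, reads of this length can therefore be assigned to Tpsb2 or Tpsab1. Of 1162 such sequences in Tpsg1, 134 (11.5%) lie in the overlap with Cacna1h, and Prss34 and Cpa3 share none with another gene.

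GATA2, whose family binds GATAA, is a central factor of mast cell gene expression, so GATAA was marked in the promoters of these genes. The promoters available were those of Cpa3, Prss34 and Tpsg1, and none was available for Tpsb2 or Tpsab1. They are RefSeq windows on GRCm38.p6, from 250 bases before to 50 after the gene start, at chr3:20242132-20242431 (minus strand), chr17:25298144-25298443 (plus strand) and chr17:25369023-25369322 (plus strand), with each GATAA in capitals.
Cpa3: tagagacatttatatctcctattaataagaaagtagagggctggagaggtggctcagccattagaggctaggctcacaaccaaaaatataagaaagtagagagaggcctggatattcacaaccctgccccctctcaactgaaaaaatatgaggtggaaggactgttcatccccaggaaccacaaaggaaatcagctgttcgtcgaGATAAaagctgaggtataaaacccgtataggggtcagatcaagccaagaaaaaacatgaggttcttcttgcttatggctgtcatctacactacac
Prss34: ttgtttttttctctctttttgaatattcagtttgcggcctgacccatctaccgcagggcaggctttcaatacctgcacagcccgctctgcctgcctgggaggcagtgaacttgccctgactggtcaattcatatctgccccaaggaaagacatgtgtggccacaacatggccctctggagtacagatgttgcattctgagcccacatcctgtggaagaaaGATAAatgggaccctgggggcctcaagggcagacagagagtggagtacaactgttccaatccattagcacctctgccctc
Tpsg1: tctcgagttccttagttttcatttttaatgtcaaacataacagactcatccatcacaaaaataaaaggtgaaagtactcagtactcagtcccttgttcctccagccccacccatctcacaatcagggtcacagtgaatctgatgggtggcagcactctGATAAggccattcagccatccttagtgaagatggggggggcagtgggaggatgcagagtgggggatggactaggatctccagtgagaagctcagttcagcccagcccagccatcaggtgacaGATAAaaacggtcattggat
GATAA begins 45 bases before the start in Cpa3, 30 before in Prss34, and at -92 and 31 in Tpsg1, on the strand of the gene in each case. A second RefSeq window of Tpsg1, at chr17:25370303-25370602, holds 0 GATAA and 3 TGTGGT, the core bound by RUNX factors. Searched on both strands, GATAA occurs in 25.4% of the 32851 promoters in the table, CANNTG (the E-box) in 72.3%, TGTGGT in 16.8% and TGACTCA (the AP-1 element) in 5.20%. Cpa3 also holds 2 CANNTG and 1 TGTGGT, Prss34 3 CANNTG and the first Tpsg1 window 1 CANNTG, with no overlap between a match of one motif and of another. A match describes the letters only and was not tied to any factor's binding.

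The shallowest library held 525983 counts (B7hi HDM 2) and the deepest 1725818 (B7hi PBS 2), so that 3 counts, the limit a count of 0 allows, equal 1.57 to 5.87 CPM (counts scaled to a common library size after TMM). This limit and the binomial intervals below cover counting error only. After saline the B7hi libraries held 1222409 and 1725818 counts, and the B7low libraries 652736 and 639906. The gene Rn45s alone took 19.7% and 21.6% of counts in B7hi PBS, against 27.2% and 28.9% in B7low PBS. In the HDM libraries its share ran from 21.9% to 26.3%. The part of depth and of Rn45s in the results below was not tested. B7hi HDM 2 and B7low PBS 2 stood apart by Kcnq1ot1, a nuclear noncoding RNA, with 12133 CPM in the first and 6956 CPM in the second; the other 8 libraries had 806 to 2794 CPM. The 8 mast cell markers (Kit, Fcer1a, Ms4a2, Il1rl1, Hdc, Gata2, Slc18a2 and Srgn) were detected in every library, and summed to 12138 to 18824 CPM in B7hi HDM, 17708 to 19590 CPM in B7low HDM, 11131 to 14749 CPM in B7hi PBS and 18135 to 23361 CPM in B7low PBS. The 4 B cell markers summed to 3.75 to 17.6 CPM in B7hi HDM, 76.5 to 542 CPM in B7low HDM, 9.82 to 61.1 CPM in B7hi PBS and 17.5 to 21.7 CPM in B7low PBS. The 4 T cell markers summed to 6.88 to 105 CPM in B7hi HDM, 1.36 to 6.50 CPM in B7low HDM, 3.02 to 154 CPM in B7hi PBS and 5.02 to 6.99 CPM in B7low PBS. The 4 epithelial markers summed to 70.0 to 129 CPM in B7hi HDM, 55.3 to 119 CPM in B7low HDM, 127 to 177 CPM in B7hi PBS and 10.5 to 26.8 CPM in B7low PBS. Cdh1 was the highest of the 4 epithelial markers in every library, whereas Epcam was at 0 to 2.71 CPM. In B7low HDM 3, Cdh1 was at 61.9 CPM beside 39.8 CPM of Sftpc and 17.7 CPM of Scgb1a1. Elsewhere Sftpc was at 0 to 1.96 CPM and Scgb1a1 at 0 to 9.79 CPM. Endothelial markers summed to 59.4 to 370.03 CPM over all libraries, and those of neutrophils, macrophages and fibroblasts to at most 13.7 CPM each. The 4 eosinophil markers summed to 13.1 to 53.5 CPM over all libraries. Siglec5 and Ccr3 made up this sum, as the eosinophil granule genes Prg2 and Epx had 0 counts in every library. The part of these other transcripts in the results below was not tested, and in bulk RNA fewer cells of a kind and less RNA per cell cannot be told apart.

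Together the 5 genes held 1.18%, 0.752% and 0.754% of all counts in B7hi HDM and 3.25%, 2.66% and 2.25% in B7low HDM. In saline-challenged mice they held 0.638% and 0.601% of counts in B7hi and 4.05% and 2.52% in B7low. Every B7hi library was below every B7low library. For each of the 5 genes the group means ran in the same order, with B7hi PBS lowest, then B7hi HDM, then B7low HDM, and B7low PBS highest. The B7low HDM and B7low PBS ranges overlapped for all 5 genes, while the other neighbours in this order had ranges that did not overlap. Of all genes, 10.2% had every B7hi HDM library above every B7hi PBS library. In 10.7% every B7hi HDM library was below every B7low HDM library. The share of all genes with this order of the 4 groups was not counted.

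**Figure D1:**
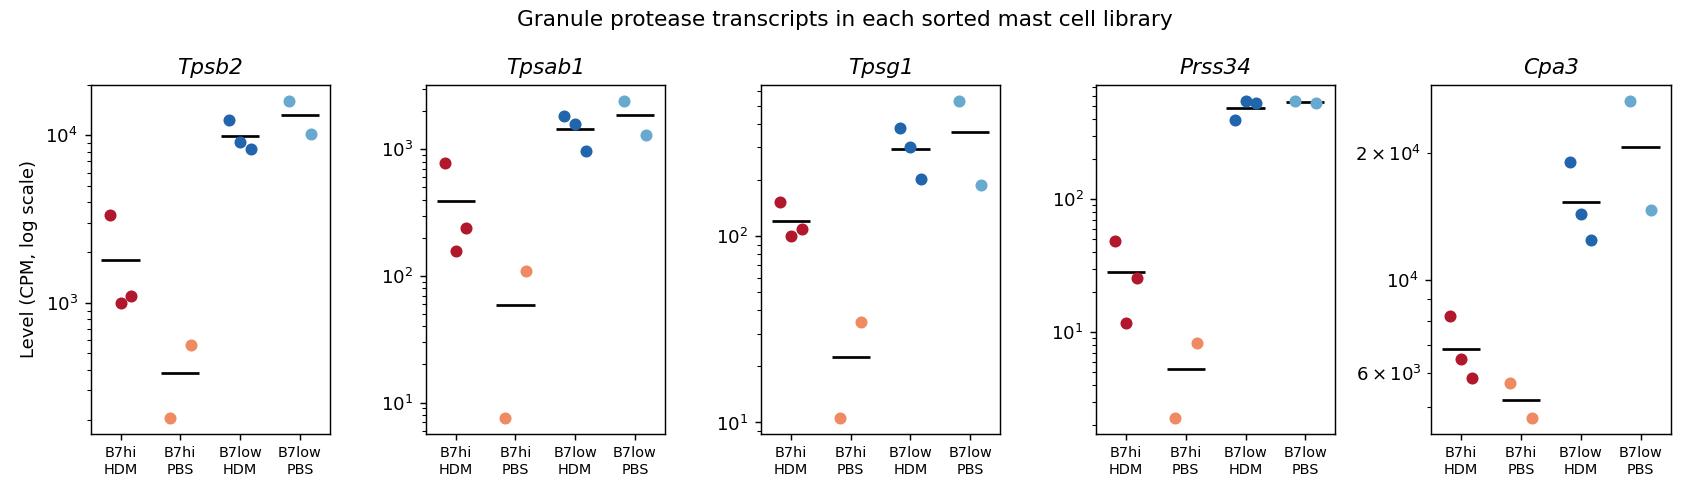
Level of each gene (CPM on a log scale) in each library, by group; points are libraries and bars are group means. In all 5 panels the B7hi libraries lie below the B7low libraries, by most for Prss34, which is at 2.27 to 48.1 CPM in B7hi libraries and at 390.4 to 549 CPM in B7low libraries.

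Tpsb2, the main tryptase of mouse connective tissue mast cells, had the highest level per kb of transcript among the tryptases, as given below. It was at 3331, 996 and 1103 CPM in B7hi HDM, against 12325, 9146 and 8265 CPM in B7low HDM. After saline it was at 206 and 559 CPM in B7hi, against 16086 and 10257 CPM in B7low. Its highest B7hi value, in B7hi HDM 1, stayed below its lowest B7low value. Tpsab1, its close relative, was at 774, 157 and 240 CPM in B7hi HDM, against 1820, 1593 and 967 CPM in B7low HDM. Among PBS libraries it was at 7.56 and 110.2 CPM in B7hi, against 2418 and 1308 CPM in B7low. The low B7hi PBS 1 value rests on 10 counts, and B7hi PBS 2 on 211 counts, so the libraries of this group were far apart, although the populations did not overlap.

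Tpsg1, a tryptase known for a C-terminal stretch that anchors it in the membrane, was at 152, 99.8 and 109 CPM in B7hi HDM, against 379.5, 300.5 and 202 CPM in B7low HDM. After saline, Tpsg1 was at 10.6 and 34.5 CPM in B7hi, against 533 and 189 CPM in B7low. The populations did not overlap under either challenge, with the nearest values at 152 CPM in B7hi HDM 1 and 202 CPM in B7low HDM 3 among the HDM libraries. Prss34 was at 48.1, 11.7 and 25.3 CPM in B7hi HDM, against 390.4, 548 and 528 CPM in B7low HDM. After saline, Prss34 was at 2.27 and 8.35 CPM in B7hi, from 3 and 16 counts, against 549 and 532 CPM in B7low, from 314 and 318 counts. Its B7low libraries were close to each other and its B7hi libraries ranged widely, down to the limit that a count of 0 allows in B7hi PBS 1. Cpa3 was at 8224, 6480.2 and 5848 CPM in B7hi HDM, against 19072, 14350.2 and 12429.5 CPM in B7low HDM. After saline, Cpa3 was at 5673 and 4699 CPM in B7hi, against 26631 and 14645 CPM in B7low. The populations did not overlap under either challenge, and the B7hi libraries of Cpa3 lay closer together than those of the serine proteases.

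Levels of different genes were compared per kb of 1 spliced coding transcript a gene, which for Tpsb2 was one of 1.081 kb and not the longer one used for the sequences of 25 bases above. On this scale Cpa3 was highest in every group, at 4728 ± 849 CPM per kb in B7hi HDM, 10548 ± 2359 in B7low HDM, 3579 ± 475 in B7hi PBS and 14243 ± 5849 in B7low PBS (mean ± SD; n = 3 per HDM group and 2 per PBS group). Tpsb2 followed at 1675 ± 1219 CPM per kb in B7hi HDM, 9169 ± 1976 in B7low HDM, 354 ± 231 in B7hi PBS and 12185 ± 3813 in B7low PBS, so that its range overlapped that of Cpa3 in the B7low groups and lay below it in the B7hi groups. Tpsab1 averaged 337 ± 290 CPM per kb in B7hi HDM and 1263 ± 382 in B7low HDM. The bottom of the order differed between the populations. Tpsg1 averaged 101 ± 23.5 CPM per kb and Prss34 23.3 ± 15.1 in B7hi HDM, while in B7low HDM Tpsg1 averaged 248 ± 75.2 and Prss34 400.5 ± 70.2. In the PBS groups, too, the mean of Tpsg1 was above that of Prss34 in B7hi (19.0 ± 14.2 and 4.35 ± 3.53 CPM per kb) and below it in B7low (304 ± 205 and 443 ± 10.006 CPM per kb).

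After saline, B7hi mast cells held less transcript of the tryptases, Prss34 and Cpa3 than B7low mast cells. In this comparison 4 of the 5 genes were called lower by edgeR's quasi-likelihood test, at a Benjamini-Hochberg adjusted p under 0.05 over all 10533 genes, where 3.64% of genes were called lower. Prss34 had the largest difference, at 93.7-fold lower in B7hi (log2 fold change -6.55 ± 0.57 SE, adjusted p = 1.57e-05), and was at rank 6 of all genes by p. Tpsb2 was 34.4-fold lower (-5.10 ± 0.71, adjusted p = 0.00169) and Tpsg1 15.5-fold lower (-3.95 ± 0.59, adjusted p = 0.00160). Cpa3 was 3.98-fold lower (-1.99 ± 0.34, adjusted p = 0.00190). Tpsab1 had a log2 fold change of -4.95 ± 1.31 and missed the threshold (adjusted p = 0.0789), with the widest error of the 5. All 5 genes had ranges that did not overlap, as did 23.4% of all genes in this direction.

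The saline values leaned on B7hi PBS 2, which held more of each serine protease than B7hi PBS 1. Without B7hi PBS 2 the log2 fold change was -6.01 for Tpsb2, -5.09 for Tpsg1 and -7.84 for Prss34, all still called, and -7.94 for Tpsab1, which was then called (adjusted p = 0.0295). Without B7hi PBS 1 the value of Tpsab1 was -4.07 (adjusted p = 0.143). Without B7low PBS 1, the library with the highest Tpsg1, its value was -2.99 (adjusted p = 0.00845). DESeq2 and limma-voom also called Tpsab1 lower (adjusted p = 4.83e-04 and 9.81e-04), as did edgeR on the 4 PBS libraries alone (adjusted p = 0.0414).

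After HDM the same direction held, with smaller differences. Here 3 of the 5 genes were called lower in B7hi, where 2.15% of all genes were. Prss34 was 16.0-fold lower in B7hi (log2 fold change -3.997 ± 0.40 SE, edgeR adjusted p = 6.06e-05, rank 9 of all genes by p). Tpsb2 was 5.47-fold lower (-2.45 ± 0.51, adjusted p = 0.0285) and Cpa3 2.23-fold lower (-1.16 ± 0.27, adjusted p = 0.0275). Tpsab1 had a log2 fold change of -1.89 ± 0.93 (adjusted p = 0.462) and Tpsg1 of -1.27 ± 0.42 (adjusted p = 0.163), and neither passed. The ranges of all 5 genes did not overlap, as in 10.7% of all genes in this direction.

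The call of Prss34 after HDM held without any 1 library, whereas those of Tpsb2 and Cpa3 did not. Without B7hi HDM 1, the B7hi library highest in all 5 genes, the log2 fold change was -3.24 for Tpsb2 (adjusted p = 6.25e-04), -2.87 for Tpsab1 (adjusted p = 0.275) and -4.59 for Prss34. The adjusted p of Tpsb2 was 0.0572 without B7hi HDM 2, 0.0797 without B7hi HDM 3, 0.0953 without B7low HDM 1, 0.0584 without B7low HDM 2, 0.0717 without B7low PBS 1 and 0.0774 without B7low PBS 2. That of Cpa3 was 0.146 without B7hi HDM 2, 0.135 without B7hi HDM 3 and 0.181 without B7low HDM 1, so that 1 gene stayed called without each of these 3 libraries. Without both libraries high in Kcnq1ot1 the adjusted p was 0.0867 for Tpsb2 and 0.0879 for Cpa3. With Tpsb2 and Tpsab1 counts summed, the log2 fold change of the sum was -2.37 (adjusted p = 0.0539). With the replicate number as a block in the edgeR fit, that of Tpsb2 was -2.56 (adjusted p = 0.0830). Tpsg1 was called lower by DESeq2 (adjusted p = 0.0409) and by edgeR on the 6 HDM libraries alone (adjusted p = 0.0187), and Tpsab1 by limma-voom (adjusted p = 0.0373).

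**Figure D2:**
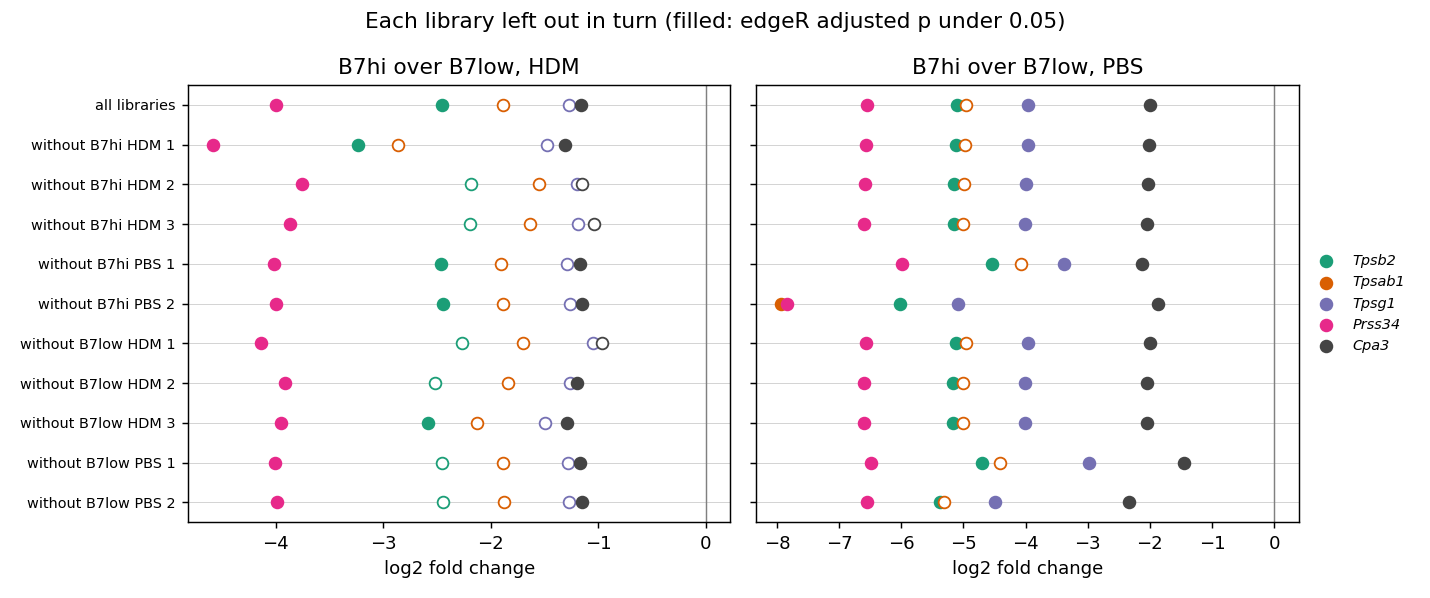
Log2 fold change of each gene in B7hi over B7low, with all libraries and with each library left out in turn, after HDM (left) and PBS (right); filled points have an edgeR adjusted p under 0.05. Every point is below 0, and Prss34 is filled in every row of both panels, from -4.59 to -3.76 after HDM and from -7.84 to -5.98 after PBS when a library is left out.

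Within B7hi, all 5 genes had higher values after HDM than after saline, and none passed the test over all genes. Tpsg1 averaged 120.2 ± 27.8 CPM in B7hi HDM and 22.5 ± 16.9 CPM in B7hi PBS (SD, n = 3 and 2), which is a difference of 2.38 ± 0.54 on the log2 scale (SE; adjusted p = 0.243). Prss34 averaged 28.4 ± 18.4 CPM in B7hi HDM and 5.31 ± 4.303 CPM in B7hi PBS, with 2.41 ± 0.53 (adjusted p = 0.173). Tpsb2 averaged 1810.1 ± 1318 CPM in B7hi HDM and 382 ± 250.02 CPM in B7hi PBS, with 2.24 ± 0.59 (adjusted p = 0.507). These 3 had an unadjusted p under 0.05. Tpsab1 had a log2 fold change of 2.71 ± 1.15 (adjusted p = 0.999) and Cpa3 of 0.40 ± 0.30 (adjusted p = 0.999), the smallest of the 5.

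For B7hi after HDM against saline, edgeR called 0 of the 5 genes, where 0.00949% of all genes were called. DESeq2 called 2 of them higher, Tpsg1 (adjusted p = 3.53e-04) and Prss34 (adjusted p = 8.14e-04), and limma-voom called 0. Of all 10533 genes, DESeq2 called 55 and limma-voom 9 in this comparison. In edgeR, 4.13% of all genes had an unadjusted p under 0.05. Every B7hi HDM library was above every B7hi PBS library for all 5 genes, as in 10.2% of all genes. The sizes depended on the 2 PBS libraries and on B7hi HDM 1. Without B7hi PBS 2 the log2 fold change was 3.14 for Tpsb2, 5.68 for Tpsab1, 3.51 for Tpsg1 and 3.68 for Prss34. Without B7hi HDM 1 it was 1.47 for Tpsb2, 1.74 for Tpsab1 and 1.82 for Prss34, and without B7hi PBS 1 it was 1.83 for Tpsab1.

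Within B7low, the 5 genes had lower means after HDM than after saline, by amounts that lay inside the spread of the libraries. Tpsb2 averaged 9912 ± 2136 CPM in B7low HDM and 13172 ± 4122 CPM in B7low PBS. Cpa3 averaged 15284 ± 3418 CPM in B7low HDM and 20638 ± 8475 CPM in B7low PBS. Prss34 averaged 489 ± 85.6 CPM in B7low HDM and 540.4 ± 12.2 CPM in B7low PBS. The log2 fold changes ran from -0.43 (Cpa3) to -0.14 (Prss34), with edgeR adjusted p-values of 0.686 to 0.944, and the ranges of all 5 genes overlapped. EdgeR called 0 of the 5 genes, where 0.00949% of all genes were called, with 0 at an unadjusted p under 0.05, as 9.08% of all genes had, and 0 by DESeq2 or limma-voom. Without B7low PBS 1 the sign turned for Tpsab1 (0.19), Tpsg1 (0.67) and Cpa3 (0.10).

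The difference between the HDM effects of the populations was tested as an interaction, B7hi effect minus B7low effect. It was 2.65 ± 0.78 (log2, SE) for Tpsb2, 3.06 ± 1.48 for Tpsab1, 2.68 ± 0.69 for Tpsg1, 2.55 ± 0.65 for Prss34 and 0.84 ± 0.42 for Cpa3. The edgeR adjusted p-values were 0.403, 0.651, 0.281, 0.245 and 0.630 in that order. EdgeR called 0 of the 5 genes and 0% of all genes, with 3 of the 5 and 8.55% of all genes at an unadjusted p under 0.05. DESeq2 called Tpsg1 (adjusted p = 0.0149) and Prss34 (adjusted p = 0.0139), among 44 calls over all 10533 genes, and limma-voom called 0 genes. Without B7hi PBS 2 the values of Tpsb2, Tpsab1, Tpsg1 and Prss34 were 3.57, 6.05, 3.82 and 3.84. The values were smaller without other libraries, at 1.88 for Tpsb2 and 2.10 for Tpsab1 without B7hi HDM 1. Without B7hi PBS 1 they were 2.17 for Tpsab1, 2.09 for Tpsg1 and 1.97 for Prss34, and without B7low PBS 1 they were 1.70 for Tpsg1 and 0.29 for Cpa3. These comparisons use the same libraries as those between the populations and are not separate evidence.

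**Figure D3:**
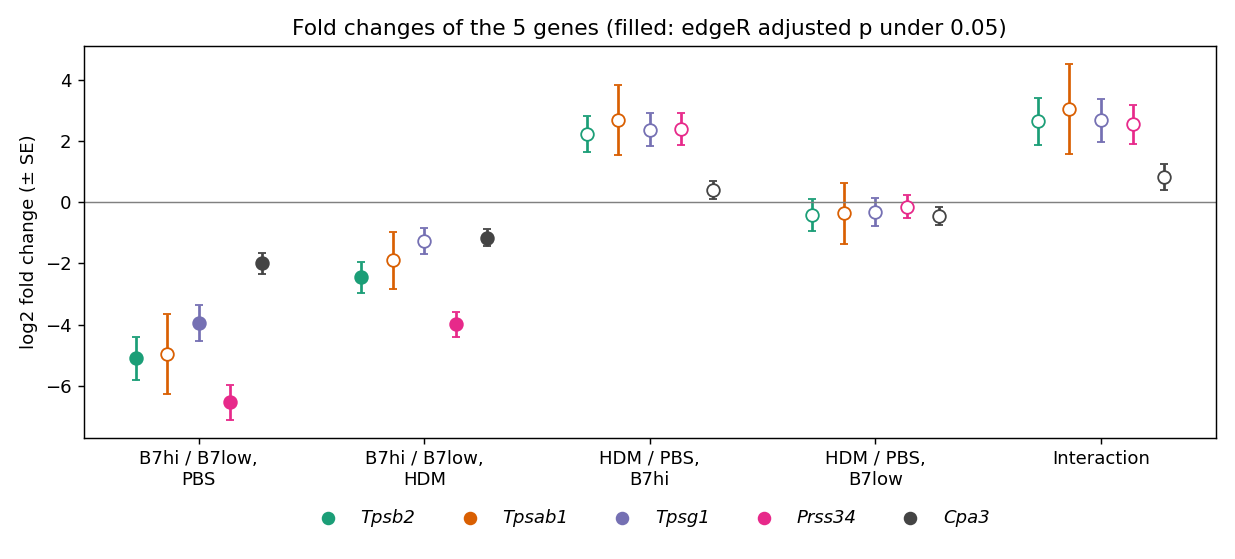
Log2 fold change of the 5 genes in each comparison, with SE bars from the edgeR fit; filled points have an adjusted p under 0.05. The population differences lie between -6.55 and -1.16, the HDM effects in B7hi between 0.40 and 2.71, and those in B7low between -0.43 and -0.14.

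The genes of the granule did not keep the same proportions in the populations. In B7low, Cpa3 had 1.55, 1.57 and 1.50 counts per Tpsb2 count after HDM and 1.66 and 1.43 after saline. In B7hi it had 2.47, 6.50 and 5.30 counts per Tpsb2 count after HDM and 27.6 and 8.40 after saline. The ratio was thus nearly the same in all 5 B7low libraries and higher, and spread more widely, in every B7hi library. Per Prss34 count, Cpa3 had 171, 552 and 231 counts in B7hi HDM, against 48.9, 26.2 and 23.6 counts in B7low HDM. In saline-challenged mice it had 2502 and 562.5 counts per Prss34 count in B7hi, against 48.5 and 27.5 in B7low. These ratios within a library do not depend on the scaling between libraries, and were chosen after the values were seen.

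Taking the log2 ratio to Cpa3 in each library, B7hi minus B7low averaged over the challenges was -4.09 for Prss34, -2.53 for Tpsab1, -2.41 for Tpsb2 and -1.12 for Tpsg1. In an exact two-sided permutation test of the population labels within each challenge (120 arrangements), p was 0.0167 for Prss34 and Tpsb2, the smallest this design can give, with an adjusted p of 0.0333 over the 4 ratios. It was 0.0333 for Tpsab1 (adjusted p = 0.0444) and 0.0833 for Tpsg1 (adjusted p = 0.0833). Since the ratios were chosen after their values were seen, these p-values describe how the libraries separate and are not independent evidence of a difference. The mean log2 ratio of Tpsg1 to Cpa3 was -5.84 in B7hi HDM and -5.73 in B7low HDM, and -8.08 in B7hi PBS and -5.96 in B7low PBS. The exact adjusted p of Tpsb2 and Prss34 stayed under 0.05 without any 1 of the other HDM libraries, and was 0.0667 without B7low HDM 1 or without B7low HDM 2. That of Tpsab1 was also 0.0667 without either of these, 0.0889 without B7hi HDM 2, and 0.267 without B7low PBS 1 or without B7low PBS 2, and that of Tpsg1 was 0.0333 without B7low HDM 3 by the same permutation test. With a library left out fewer than 120 arrangements remain, so p moves in coarser steps. Without B7low HDM 1 and without B7low HDM 2, the Tpsb2 difference was -2.41 and -2.42. For Prss34 it was -4.26 and -4.03.

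**Figure D4:**
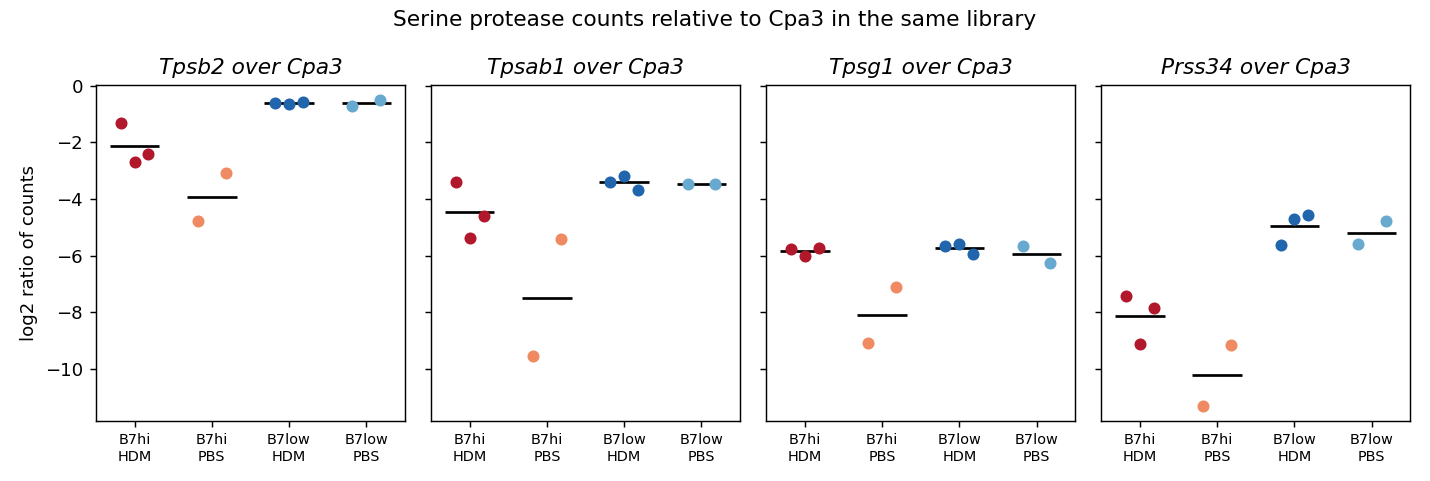
Log2 ratio of each serine protease's count to the Cpa3 count of the same library, by group; points are libraries and bars are group means. The Prss34 ratio averages -8.13 in B7hi HDM and -10.21 in B7hi PBS, below -4.96 in B7low HDM and -5.19 in B7low PBS, whereas the Tpsg1 ratios of the HDM groups lie together.

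Within the closest pair of relatives, Tpsab1 made up 18.9%, 13.6% and 17.8% of the summed Tpsab1 and Tpsb2 counts in B7hi HDM, against 12.9%, 14.8% and 10.5% in B7low HDM. In saline-challenged mice it made up 3.55% and 16.5% in B7hi, against 13.1% and 11.3% in B7low. The low share of B7hi PBS 1 comes from 10 of 282 counts and has an exact binomial 95% interval of 1.71% to 6.42%, which lies below the 14.5% to 18.6% of B7hi PBS 2. The populations overlapped in this share after HDM, and after saline the B7hi libraries lay on either side of the B7low libraries.

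The remaining serine protease genes of the tryptase locus had few or no counts in these cells. Of 9 further genes (Prss21, Prss22, Prss27, Prss28, Prss29, Prss30, Prss32, Prss33 and Prss41), 0 passed the count filter, and 5 had 0 counts in all 10 libraries. Prss28, which lies between Prss34 and Tpsab1, had 0, 0 and 2 counts in B7hi HDM and 4, 3 and 7 in B7low HDM. In saline-challenged mice Prss28 had 0 and 0 counts in B7hi and 3 and 6 in B7low. Prss30 had 23 counts over all libraries, Prss33 had 3 and Prss22 had 1. At this depth a level below the limit that a count of 0 allows could not be seen.

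Genes around the cluster were compared with it in a window of 250 kb on either side of the Tpsb2 start, a width chosen after the data were seen. Of the 9 tested neighbours other than the members, edgeR called 1 lower in B7hi after saline, as it did 3.64% of all genes, and 0 after HDM, against 2.15% of all genes, where their log2 fold changes ran from -1.15 to 1.29. The gene called was Cacna1h (adjusted p = 0.00437), which overlaps the end of Tpsg1. It had 21, 4 and 6 counts in B7hi HDM, against 9, 47 and 21 in B7low HDM, and 1 and 0 counts in B7hi PBS, against 20 and 9 in B7low PBS. Without strand information, reads from the 158 shared bases cannot be told apart between Tpsg1 and Cacna1h. Around Cpa3, 1 of 4 tested neighbours was called, and in both comparisons, namely Gyg, which encodes glycogenin, the primer of glycogen synthesis (log2 fold change -1.39, adjusted p = 0.0177 after HDM, and -1.53, adjusted p = 0.0211 after saline).

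**Figure D5:**
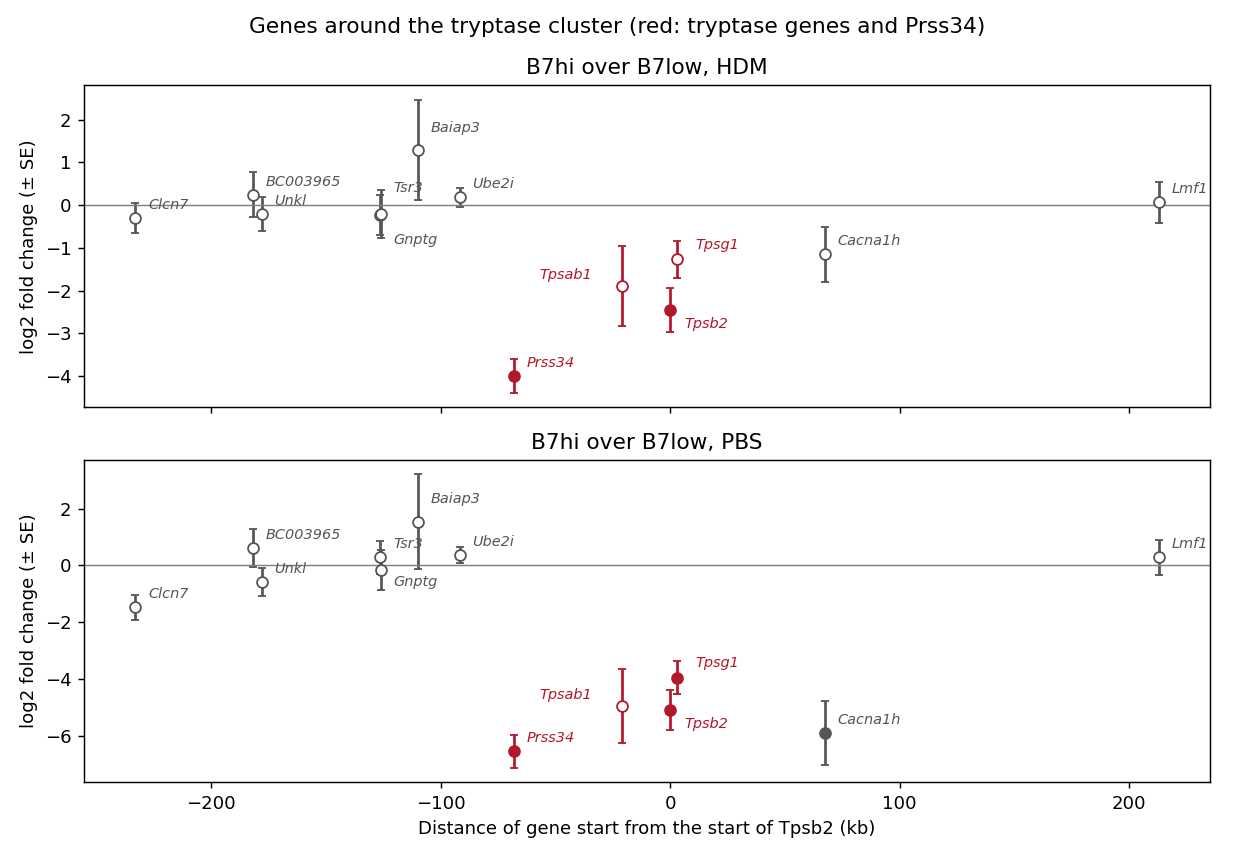
Log2 fold change (± SE) in B7hi over B7low of tested genes by the distance of their start from that of Tpsb2, after HDM (top) and PBS (bottom); filled points have an edgeR adjusted p under 0.05. The 4 red genes, which span 76.0 kb, lie at -1.27 or lower in both panels, while the flanking genes other than Cacna1h lie between -1.48 and 1.54; the Cacna1h value after PBS rests on 1 count in the B7hi libraries.

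Tryptases need heparin for storage and assembly, so genes of heparin and serglycin synthesis were set beside them. Of 27 tested genes, 3 fell in B7hi relative to B7low after saline and 0 rose, with a median log2 fold change of -0.18 against 0.03 over all genes tested; edgeR called 6.54% of all genes in either direction. The 3 were Ndst2, the N-deacetylase and N-sulfotransferase of mast cell heparin (-1.76 ± 0.29, adjusted p = 0.00139), Ext1, which extends the heparan chain (-2.33 ± 0.42, adjusted p = 0.00290), and Hs6st2, a 6-O-sulfotransferase (-1.35 ± 0.32, adjusted p = 0.0184). After HDM, edgeR called 2 lower and 0 higher (DESeq2 called 1 higher and limma-voom 0), Ext1 (-1.64 ± 0.34, adjusted p = 0.0133) and Ndst2 (-1.01 ± 0.23, adjusted p = 0.0250), where 2.84% of all genes were called in either direction; the median was -0.19 against 0.03. The count of 2 was 1 without B7hi HDM 2, B7low HDM 1 or B7low HDM 3 and 0 without B7hi HDM 3. Chsy1, a chondroitin synthase, had 1.33 ± 0.41 (adjusted p = 0.115).

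Of 13 genes that process or degrade granule proteases, edgeR called 1 higher and 1 lower in B7hi relative to B7low after saline, with a median log2 fold change of 0.41, against 6.54% of all genes called. Ctsd, the aspartic protease cathepsin D, fell by 1.37 on the log2 scale (adjusted p = 0.0201), a call lost without B7hi PBS 1, B7hi PBS 2 or B7low PBS 1. Ctss, cathepsin S, averaged 19.0 ± 10.8 CPM in B7hi PBS and 0.874 ± 1.24 CPM in B7low PBS (adjusted p = 0.0421). DESeq2 and limma-voom called 0 of the 13 higher, as did edgeR without B7hi PBS 2, B7low PBS 1, B7low PBS 2, B7hi HDM 2, B7hi HDM 3 or B7low HDM 2. After HDM 0 of the 13 were called by edgeR, with 7 at an unadjusted p under 0.05, 3 called by DESeq2 and 2 by limma-voom, and the median was -0.82; of all 10533 genes edgeR called 2.84%, and 1433 had an unadjusted p under 0.05. Ctsc, which encodes the dipeptidyl peptidase that activates granule serine proteases, had 0.83 ± 0.25 (adjusted p = 0.101) after HDM.

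Other carboxypeptidases were scarce, with 3 of 15 listed genes tested. None was called after saline by edgeR, DESeq2 or limma-voom, where edgeR called 6.54% of all genes. In edgeR 0 of the 3 had an unadjusted p under 0.05 after saline, as 2237 of all 10533 genes had. After HDM edgeR called 1 of the 3, lower in B7hi, where it called 2.84% of all genes. This was Cpq, which encodes plasma glutamate carboxypeptidase, at 7.52 ± 4.84 CPM in B7hi HDM and 46.1 ± 14.1 CPM in B7low HDM (log2 fold change -2.49 ± 0.49, adjusted p = 0.00881).

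Of protease inhibitors and substrates, 8 of 19 listed genes were tested, and edgeR called 1 higher and 2 lower in B7hi after saline (median log2 fold change 0.52), with 6.54% of all genes called. Lxn encodes latexin, an inhibitor of A-type carboxypeptidases, and was lower in B7hi by 2.55 on the log2 scale (edgeR adjusted p = 0.00870). Serpinb6a, an intracellular serpin, was lower in B7hi by 1.72 (edgeR adjusted p = 0.0344). F2r, the thrombin receptor PAR1, was higher by edgeR (1.57 ± 0.40, adjusted p = 0.0273). DESeq2 also called 1 of the 8 higher, while limma-voom called 0, as did edgeR without any 1 of the 4 PBS libraries. The count of 2 lower was 0 without B7hi PBS 1 or B7low PBS 1 and 1 without B7hi PBS 2. Among the HDM libraries edgeR called 1 higher and 1 lower in B7hi than in B7low (median 0.40), against 2.84% of all genes called. F2r was at 1.57 ± 0.30 (edgeR adjusted p = 0.00722) and Serpinb6a at -1.86 ± 0.39 (edgeR adjusted p = 0.0153). Leaving out B7low HDM 1, B7low HDM 3, B7hi HDM 1 or B7hi HDM 2 ended the Serpinb6a call. F2rl1, which encodes PAR2, the receptor known to be cleaved by tryptase, did not pass the count filter.

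Of 23 tested transcription factors of the mast cell lineage, edgeR called 1 higher and 2 lower in B7hi after saline (6.54% of all genes called), and 0 higher and 3 lower after HDM (2.84% of all genes called; 0 higher also by DESeq2 and limma-voom), with medians of -0.30 and -0.23. The count lower was 1 without B7hi PBS 1, B7hi PBS 2 or B7low PBS 1 after saline, and after HDM it was 1 when B7low HDM 1, B7hi HDM 2 or B7hi HDM 3 was left out. Meis2, a homeobox factor, averaged 4.12 ± 6.61 CPM in B7hi HDM and 101 ± 17.97 CPM in B7low HDM (adjusted p = 0.00181), and 0.378 ± 0.534 CPM in B7hi PBS and 138 ± 62.4 CPM in B7low PBS (adjusted p = 7.62e-04). Its relative Meis1 was higher in B7hi than in B7low after saline (1.63 ± 0.36, edgeR adjusted p = 0.0121), though edgeR called 0 factors higher without B7hi PBS 2. Lyl1 was lower in B7hi after saline (-2.24 ± 0.46, edgeR adjusted p = 0.00729). Among the HDM libraries Myb was lower in B7hi than in B7low (-1.31 ± 0.29, edgeR adjusted p = 0.0215). Irf8, also expressed by B cells, averaged 0.417 ± 0.722 CPM in B7hi HDM and 22.2 ± 9.91 CPM in B7low HDM (adjusted p = 0.0327), the group with the highest B cell marker sum; the part of B cell RNA in this value was not tested. Gata2 had -0.56 ± 0.23 (adjusted p = 0.282) after HDM.

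Among the 8 mast cell markers themselves, 3 were lower in B7hi than in B7low after saline, and 0 were higher by any of the 3 tools. The median log2 fold change was -0.58, and edgeR called 6.54% of all genes. The 3 were Il1rl1, Fcer1a and Hdc, at -2.04 ± 0.30, -1.85 ± 0.38 and -1.47 ± 0.42 (edgeR adjusted p = 6.78e-04, 0.00706 and 0.0474). Without B7hi PBS 1, B7hi PBS 2 or B7low PBS 1 edgeR called 1 of the 8. After HDM edgeR, DESeq2 and limma-voom each called 0 of the 8, and the median was -0.30. In edgeR 3 of the 8 had an unadjusted p under 0.05, as 1433 of all 10533 genes had, and 2.84% of all genes were called. Of 8 tested chymase locus genes edgeR called 2 lower and 0 higher in B7hi under each challenge. It called 3.64% of all genes lower after saline and 2.15% after HDM. DESeq2 called 1 of the 8 higher after HDM and 2 after saline, and limma-voom 2 under each. The median log2 fold change was -1.42 after saline, with 2 of the 8 above 0, and 1.13 after HDM, with 6 above 0. The 2 called lower were Cma1, a chymase, at 5074 ± 1005 CPM in B7hi HDM and 20297 ± 3759.6 CPM in B7low HDM, and Mcpt4, the chymase mMCP-4, with a log2 fold change of -4.76 ± 0.56 after HDM and -5.76 ± 0.72 after saline. Gzmb, granzyme B, was higher in B7hi without overlap under each challenge (edgeR adjusted p = 0.327 after HDM and 0.0560 after saline). Mcpt1 and Mcpt2 averaged 6992 and 7759 CPM in B7hi HDM, against 1807 and 3300 CPM in B7low HDM. After saline their means were lower in B7hi, and the populations overlapped for both genes under each challenge.

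Because Prss34 is also a basophil protease, the other basophil markers were set beside it. All 5 (Mcpt8, Cd200r3, Itga2, Ifitm1 and Il3ra) were detected in every library, and their sum was 1756 to 2827 CPM in B7hi HDM, 832 to 1339 CPM in B7low HDM, 1645 to 2163 CPM in B7hi PBS and 645 to 1010.0 CPM in B7low PBS. The markers did not move one way, with 2 log2 fold changes above 0 (Mcpt8 and Ifitm1) and 3 below 0 in each comparison of the populations. Itga2, an integrin subunit, averaged 6.83 ± 2.72 CPM in B7hi HDM and 17.8 ± 8.11 CPM in B7low HDM (edgeR adjusted p = 0.226). Mcpt8, the serine protease mMCP-8 of basophils, was at 821, 1288 and 1552 CPM in B7hi HDM, against 82.7, 368 and 383 CPM in B7low HDM. After saline Mcpt8 was at 837 and 691 CPM in B7hi, against 57.7 and 189 CPM in B7low. Mcpt8 was thus higher in every B7hi library than in any B7low library, the opposite order to Prss34, with log2 fold changes of 2.12 ± 0.58 (adjusted p = 0.109) after HDM and 2.63 ± 0.74 (adjusted p = 0.0732) after saline. EdgeR called 0 of the 5 higher under either challenge, while DESeq2 and limma-voom each called 1 after HDM and 2 after saline. Of all 10533 genes, edgeR, DESeq2 and limma-voom called 299, 507 and 324 in either direction after HDM. After saline the 3 tools called 689, 907 and 504 in the same order. Cd200r3, an activating receptor that mast cells also carry, was lower in B7hi than in B7low (-1.36 ± 0.30, edgeR adjusted p = 0.0222 after HDM, and -3.42 ± 0.41, edgeR adjusted p = 1.21e-04 after saline). Leaving out B7low HDM 1, B7low HDM 2, B7hi HDM 2 or B7hi HDM 3 ended the Cd200r3 call after HDM. The part of basophil RNA in the values of Prss34 was not tested.

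For HDM against saline, edgeR called 0 of the 74 tested genes of heparin synthesis, protease processing, carboxypeptidases, inhibitors and substrates, and lineage factors in either population. The number at an unadjusted p under 0.05 was 8 in B7hi and 10 in B7low, where 4.13% and 9.08% of all genes had one in B7hi and B7low, and DESeq2 and limma-voom also called 0. The interaction likewise called 0 of the 74 with each of the 3 tools, with 5 at an unadjusted edgeR p under 0.05, as 8.55% of all genes had.

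The genes most like each member were ranked by Pearson's r of log2 CPM over the 10 libraries among 6047 genes with a mean of at least 20 CPM. These values describe libraries that share the same 2 populations, so any gene that differed between B7hi and B7low tends to score high, and no p is given. Tpsb2 was closest to Cd200r3 (r = 0.989), Ccl2 (0.987), Mlph (0.985), Sytl3 (0.982) and Cma1 (0.981). Tpsab1 was closest to Ccl7 and Dhrs3 (both 0.986), Ccrl2 (0.984), Cd200r3 (0.972) and Tpsg1 (0.971). Tpsg1 was closest to Anapc15 (0.972), Tpsab1 (0.971), Ccl7 (0.964), Dhrs3 (0.962) and Cnr2 (0.961), so that Tpsab1 and Tpsg1 shared Ccl7 and Dhrs3. Prss34 was closest to Fmn1 (0.983), Tpsb2 (0.979), Pla2g7 (0.978), Ttc39b (0.976) and Syk (0.974). Cpa3 was closest to Ube2v2 (0.990), Vwa5a (0.989), Sgpl1 (0.983), Kcne3 (0.978) and Slc4a11 (0.974), and neither Cpa3 nor Tpsb2 had another member among these 5. Among the members, r ran from 0.822 (Tpsab1 and Cpa3) to 0.979 (Tpsb2 and Prss34).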

How the data were processed

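The deposited table holds whole-number counts per gene symbol, 1 column per library and no unmapped column, not normalized by the authors as far as its values show. Per the labels' protocols, SmartSeq2 libraries (poly(A)+ RNA copied to cDNA, amplified and cut by a transposase) were read as paired ends of 25 bases. Tools and build listed in the submitters' processing notes, without roles, are mm10, DESeq2, Cufflinks 2.2.1 and TopHat2 2.0.10. How reads were counted, and whether strand was used, is not given in the sources used here.

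Groups and replicate numbers came from sample titles. In R 4.3.3, edgeR 4.0.16 filtered the counts (filterByExpr), scaled them (TMM) and fitted a robust quasi-likelihood model of 4 group means over all 10 libraries (common biological coefficient of variation 0.359). The 5 contrasts were tested two-sided, with Benjamini-Hochberg adjustment over 10533 genes. The SE of a log2 fold change is its size over the square root of F. Counts of libraries of the same group differed beyond sampling noise (chi-square over its degrees of freedom 6.54 to 11.0). No library thus looked like another of its own group deposited again, and each was counted once. Libraries of different groups were not compared in this way. The model was tested on simulated data.

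Named genes are the 5 members, up to 3 of each list with the smallest p, locus proteases with counts, and the 5 genes most like each member (prior count 2). Cacna1h, Gyg, F2rl1, Kcnq1ot1, Rn45s, Mcpt1, Mcpt2 and cell type markers are named apart from this rule. The members and lists were chosen with earlier results of these data known. Cell type markers Siglecf and Adgre1 were read as Siglec5 and Emr1, older symbols. Alternatives were DESeq2 1.42.0, limma-voom (limma 3.58.1), other scaling and filters, fewer libraries, the replicate number as a block, and Tpsb2 and Tpsab1 summed.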

Additional observations from a re-analysis of the deposited data

How the results depend on the processing

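Over all alternatives, 458 of 490 values of the 5 genes kept their direction and their side of the threshold, 16 passed it anew, 13 no longer passed and 3 turned sign. The 3 were the HDM effects in B7low without B7low PBS 1 (Tpsab1 0.19, Tpsg1 0.67 and Cpa3 0.10); with 1 library left out these ranged from -0.72 to 0.19, from -0.86 to 0.67 and from -0.79 to 0.10, never past the threshold. DESeq2 and the fit with no count filter each called 2 of the 5 genes, Tpsg1 and Prss34, for HDM in B7hi and 2 for the interaction, against 0 with edgeR and its filter. For B7hi against B7low after HDM, 1 gene was called without both B7low PBS 2 and B7hi HDM 2, against 3. The number called without 1 library ranged from 1 to 3 for that comparison, from 4 to 5 after saline, and was 0 for HDM in B7hi, HDM in B7low and the interaction. The cause of these shifts was not tested.

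Whether replicate numbers pair the libraries could not be decided from the labels or the counts. Deviations of same-numbered B7hi and B7low libraries correlated at 0.041 (PBS) and at 0.022, -0.112 and -0.049 (HDM). Differently numbered libraries correlated at -0.041 (PBS) and at -0.124 to 0.199 (HDM). The PBS values are a single value with its sign turned, because deviations within a PBS group mirror each other. The few HDM values are too weak to exclude a shared animal or pool. With the replicate number as a block, Tpsb2 after HDM was -2.56 (adjusted p = 0.0830); the block changed the call of no other of the 5 genes.

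Over all genes, DESeq2 called 507 after HDM between the populations, against 299 with edgeR, 55 against 1 for HDM in B7hi, 19 against 1 in B7low, and 44 against 0 for the interaction; limma-voom called 324, 9, 0 and 0. With 1 library left out, edgeR called 12 to 112 genes higher and 112 to 256 lower after HDM between the populations, against 73 and 226, and 80 to 305 higher and 146 to 427 lower after saline, against 306 and 383. Of the 74 pathway genes, DESeq2 called 4 higher and 10 lower after HDM between the populations, against 1 and 7 with edgeR. After saline DESeq2 called 2 chymase locus genes and 2 basophil markers higher, against 0 of each with edgeR, and 2 lineage factors higher and 4 lower, against 1 and 2. Library size alone in place of TMM shifted the median of all genes by 0.27 after saline, where 67.9% of calls were then higher, against 44.4%, and by -0.29 in the interaction. Prss34 in B7hi PBS rests on 3 and 16 counts, which limits the precision of its fold change.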
